A study of Mus musculus with 79 samples.

Results

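The tumors compared here were examined for 10 listed genes of the extracellular matrix: the matricellular proteins Postn, Tnc, Sparc, Spp1, Thbs1 and Thbs2, the matrix glycoprotein Fn1, and the lysyl oxidases Lox, Loxl1 and Loxl2. Members were found by gene symbol in the platform gene table, which held 8 of the 10, each with 1 transcript cluster, among 19505 genes. Spp1 and Loxl2 were not analysed here. The members were chosen by a measured value, in that Postn was lower in E0771 tumors of obese mice, so for the comparison of obese with control mice in that line the values of all 8 genes are given as a description, without a test, and the same holds for every sulindac comparison of Postn in that line that reuses those tumors. Differences of Postn between that line and the others also include those tumors and are a description.

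Matricellular proteins are secreted into the matrix but do little to bear load. They bind integrins, growth factors and other matrix proteins, and in adult tissue most are made at sites of wound repair, fibrosis and tumor growth, largely by fibroblasts and other mesenchymal cells. Lysyl oxidases are secreted copper enzymes that oxidize lysine residues of collagen and elastin, which starts the covalent crosslinks that stiffen a tumor's stroma.

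RNA of 79 whole mammary tumors, 1 per mouse, was hybridized to Clariom S Mouse HT arrays, and the deposited values are SST-RMA signals on the log2 scale. All mice were female adult C57BL/6J mice injected in mammary fat pad 4 with cells of E0771, a mouse mammary carcinoma line that here carried a GFP-NanoLUC reporter, or of metM-Wnt-lung or metM-Wnt-liver, lines grown out of lung and liver metastases of the MMTV-Wnt1 derived M-Wnt cells. DIOSul mice were made obese on a 60% high fat diet (D12492) and then ate that diet with 140 ppm sulindac, an inhibitor of both cyclooxygenases. DIO mice ate the high fat diet alone, ConSul mice ate the control diet D12450J with 140 ppm sulindac, and Con mice ate the control diet alone. By the authors' account sulindac was given for 5 weeks before the cells were injected, so it preceded the tumors. There were 8 DIOSul, 8 DIO, 6 ConSul and 6 Con tumors of E0771, then 7, 7, 6 and 6 of metM-Wnt-lung and 7, 7, 4 and 7 of metM-Wnt-liver. Each model is 1 cell line, each tumor is a mixture of cancer and host cells, and fewer cells of a type and less RNA per cell cannot be told apart in such tissue.

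Array medians were between 6.285 and 6.805 in all 79 arrays, and no pair of arrays correlated above 0.995. The 6 Con arrays of metM-Wnt-lung and the 4 ConSul arrays of metM-Wnt-liver stood apart from the other 41 metM-Wnt arrays. The distance between their 1st and 99th percentiles was 13.13 to 13.38, against 12.88 to 13.08 in the other 41. Whether these 10 arrays were run apart, or carry labels exchanged with other groups, was not tested, and every metM-Wnt difference below holds as far as the deposited labels do. Every comparison within a metM-Wnt line that sets these arrays against others is therefore given with the comparisons that do not use them. Skeletal muscle or keratinocyte markers were high in 21 arrays, 10 of them of DIOSul, 2 of DIO, 6 of ConSul and 3 of Con mice. Averaged over 6 mammary epithelial markers, E0771 tumors had levels of 5.32 to 9.52, metM-Wnt-lung tumors 5.68 to 10.5 and metM-Wnt-liver tumors 4.11 to 8.46, so that the lowest tumors of each line lay below the median of all genes.

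Promoter sequence was looked up because several of the genes moved together. The RefSeq windows of build GRCm38.p6, from 250 bases before to 50 bases after the start of transcription, held 4 of the 8 genes (Postn, Tnc, Sparc and Thbs2), and for Postn and Tnc the more downstream of 2 listed starts is shown. Capitals mark matches, on either strand, to the TATA box TATAAA, the SMAD site CAGACA and the CCAAT box CCAAT. A match on the opposite strand is printed as its reverse complement, such as TGTCTG for the SMAD site. The AP-1 site TGACTCA and the TEAD site GGAATG were searched too and had no match in these 4 windows.
Postn, chr3:54360857-54361156, plus strand: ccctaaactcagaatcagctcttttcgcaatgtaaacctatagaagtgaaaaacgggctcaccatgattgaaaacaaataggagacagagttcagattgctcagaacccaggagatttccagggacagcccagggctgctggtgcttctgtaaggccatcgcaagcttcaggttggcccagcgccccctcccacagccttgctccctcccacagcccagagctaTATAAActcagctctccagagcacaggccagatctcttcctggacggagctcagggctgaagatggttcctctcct
Tnc, chr4:64046887-64047186, minus strand: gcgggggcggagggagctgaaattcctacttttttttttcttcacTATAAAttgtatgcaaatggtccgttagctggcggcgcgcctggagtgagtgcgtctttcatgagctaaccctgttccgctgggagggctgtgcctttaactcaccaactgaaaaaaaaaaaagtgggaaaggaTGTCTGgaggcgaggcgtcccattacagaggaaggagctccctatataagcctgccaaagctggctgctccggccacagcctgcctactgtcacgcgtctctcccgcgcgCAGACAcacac
Sparc, chr11:55420031-55420330, minus strand: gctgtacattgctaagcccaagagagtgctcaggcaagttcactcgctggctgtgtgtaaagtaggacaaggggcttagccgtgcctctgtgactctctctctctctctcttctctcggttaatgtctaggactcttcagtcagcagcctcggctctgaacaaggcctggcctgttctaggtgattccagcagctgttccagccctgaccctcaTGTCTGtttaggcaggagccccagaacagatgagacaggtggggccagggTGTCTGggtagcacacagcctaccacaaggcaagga
Thbs2, chr17:14694213-14694512, minus strand: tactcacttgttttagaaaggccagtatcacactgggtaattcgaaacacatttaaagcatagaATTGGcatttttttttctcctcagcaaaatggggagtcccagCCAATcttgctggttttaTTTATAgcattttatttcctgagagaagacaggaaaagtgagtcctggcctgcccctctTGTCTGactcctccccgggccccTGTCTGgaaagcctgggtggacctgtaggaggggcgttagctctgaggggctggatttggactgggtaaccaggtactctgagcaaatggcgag
The Postn window held TATAAA at position −26 from the start and none of the other 4 motifs. Tnc held TATAAA at position −205 and 2 matches to CAGACA, Sparc held 2 matches to CAGACA, and Thbs2 held 2 matches to CAGACA, 2 to CCAAT and TATAAA on the opposite strand. Of 32851 windows of the same length, 13.6% held TATAAA, 21.0% held CAGACA, 37.4% held CCAAT, 5.20% held TGACTCA and 14.7% held GGAATG. These are matches of letters and no measure of binding.

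Across the 12 sets of tumors the 8 genes differed widely in how far their signal ranged. The means of the sets spanned 8.20 on the log2 scale for Lox, which oxidizes collagen and elastin, 7.54 for Fn1, the fibronectin on which cells assemble matrix, and 5.45 for the lysyl oxidase Loxl1, known for its part in elastic fibers. The span was 4.89 for Postn (periostin, an integrin ligand that aids collagen crosslinking), 3.50 for Thbs2 and 2.72 for Thbs1 (thrombospondins, of which Thbs1 also activates latent TGF-beta), 2.33 for Tnc (tenascin C) and 1.86 for Sparc, a collagen binding protein of the matrix. The spread among tumors of 1 set was smallest for Sparc, with SDs of 0.14 to 0.36, and reached 0.49 to 2.19 for Postn. Ordered by mean, most neighboring sets overlapped within 1 SD. For Postn, Tnc, Thbs1 and Thbs2 no neighbors in the order were further apart than that. For Lox the metM-Wnt-liver ConSul tumors, at the top, stood clear of the metM-Wnt-lung Con tumors by 1.22, and those of the next set by 2.21, while in Fn1 and Loxl1 the gap before the E0771 sets was 2.35 and 1.63.

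**Figure D1:**
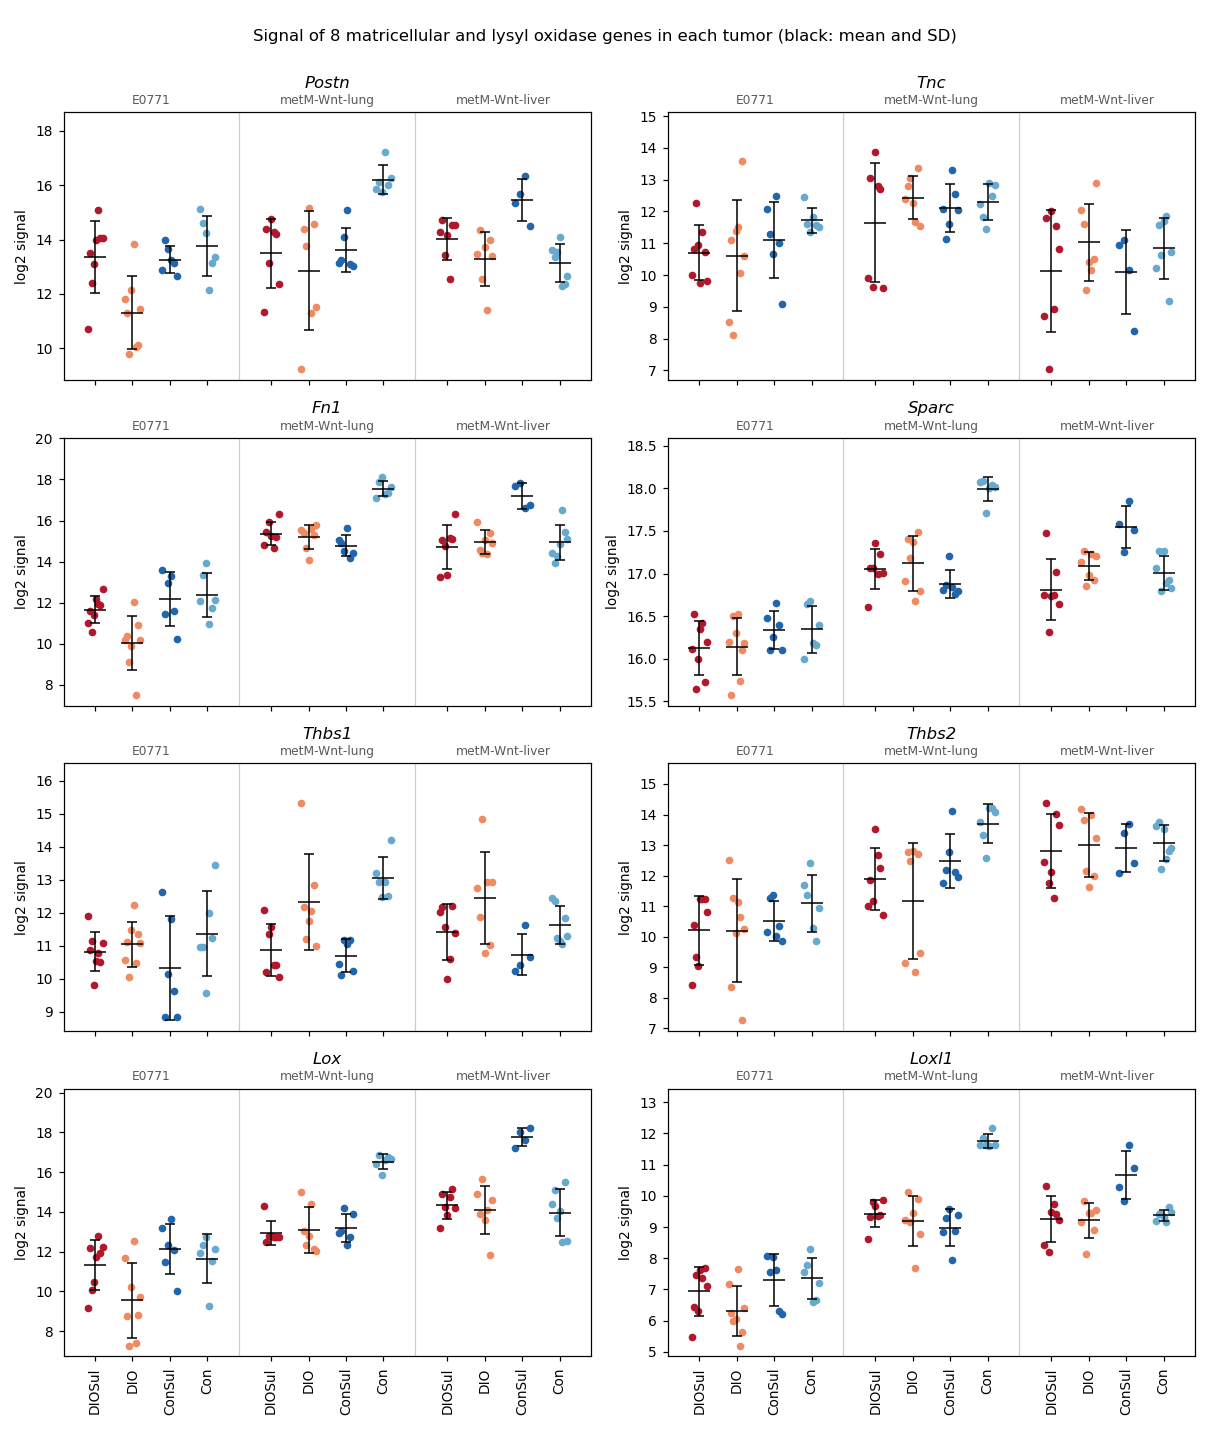
Log2 signal of each of the 8 genes (vertical axes) in every tumor, by cell line and group (horizontal axis), with points for tumors and bars for the mean and SD of a set. Con tumors of metM-Wnt-lung and ConSul tumors of metM-Wnt-liver are the 2 highest sets for Postn, Fn1, Lox and Loxl1, and E0771 DIO tumors have the lowest Postn mean of the 12 sets, 11.31.

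Postn had its lowest mean of the 12 sets in E0771 tumors of DIO mice. Its signal had a low of 9.79, a median of 11.38 and a high of 13.82 in the 8 DIO tumors, against 12.13, 13.81 and 15.11 in the 6 Con tumors. The groups overlapped, with 6 of 8 DIO tumors below the lowest Con tumor. The means were 11.31 ± 1.34 in DIO and 13.77 ± 1.09 in Con tumors (SD, n = 8 and 6), a log2 difference of −2.46 or 5.48-fold lower, the 27th largest in either direction among 19505 genes. The difference was between −2.81 and −2.19 when each tumor of the line was left out in turn.

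All the other members lay below 0 in the same comparison, by unequal amounts. Fn1 had a low of 7.52, a median of 10.18 and a high of 12.01 in DIO tumors, against 10.97, 12.10 and 13.92 in Con tumors, and 7 of 8 DIO tumors were below the Con range (−2.35, 5.08-fold lower). Lox had 7.28, 9.28 and 12.54 in DIO tumors, against 9.29, 12.04 and 12.72 in Con tumors (−2.09, 4.27-fold lower), with 4 of 8 DIO tumors below the Con range. Fn1 was thus low in most and Lox in many of the DIO tumors. Tnc differed by −1.11, Loxl1 by −1.05, Thbs2 by −0.89, Thbs1 by −0.31 and Sparc by −0.20, and of these 5 only Loxl1 differed by more than the SD of its DIO tumors. The median of the 8 was −1.08, against 0.000417 over all genes, and the groups overlapped for each member. Over all genes 5.17% were called in this comparison, 2.75% as lower, and 0.954% had groups that did not overlap.

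Fibroblast markers were lower beside them in the same tumors. The median difference of the 7 measured markers was −1.20, and 2 of them, Thy1 (−2.91) and Col1a1 (−2.70), were called lower. These tumors chose Postn, and the fibroblast score varied with Postn (r = 0.76 over the 79 tumors). The marker calls in this comparison therefore serve as a description and are no separate evidence. Their summed signal was 61.56 to 80.86 in DIO tumors, against 72.10 to 87.04 in Con tumors. With the fibroblast score as a term in the fit, the Postn difference was −0.94 in place of −2.46 and that of Lox −0.27 in place of −2.09, while that of Fn1 was −1.16 in place of −2.35. The platelet markers Ppbp (2.89) and Gp9 (0.97) were called higher, and 3 macrophage markers were called lower with Gpnmb higher. The part of these cells in the Postn difference was not tested further. The distance between the 1st and 99th percentile was 12.77 to 13.05 in DIO arrays, against 13.03 to 13.17 in Con arrays, and with it as a term the Postn difference was −2.57.

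Other genes of the matrix were called in small number in that comparison, whose tumors are those that chose Postn. Of 81 measured genes in 5 lists (other matricellular proteins, collagen processing and crosslinking, receptors, fibrillar partners and TGF-beta signaling), 2 were higher and 6 lower by limma at a Benjamini-Hochberg adjusted p under 0.05. Those lower were the collagen I chains Col1a1 (−2.70) and Col1a2 (−2.28), the small proteoglycan Bgn (−1.68) and Mgp, an inhibitor of calcification (−1.77). The integrin subunits Itga4 (−1.86) and Itga9 (−1.31) were lower too. The subunit Itga9 forms a receptor for tenascin C, and Itga4 a receptor for fibronectin. Tgfbr3, the co-receptor betaglycan (1.14), and Smad3, a transducer of TGF-beta (0.58), were higher. Like the marker calls, these calls are a description and no separate evidence. Col1a2 was the gene most like Postn (r = 0.80 over the 79 tumors after the mean of each set was subtracted). None of the 14 measured genes of collagen processing and crosslinking was called in either direction.

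Sulindac in obese mice was followed by higher Postn in E0771 tumors, while no other member passed the test. Postn had a low of 10.72, a median of 13.74 and a high of 15.08 in DIOSul tumors, against 9.79, 11.38 and 13.82 in DIO tumors, a log2 difference of 2.05 or 4.13-fold higher. The groups overlapped, and 4 of 8 DIOSul tumors were above every DIO tumor. DIO tumors were those that chose the gene, so this difference has no test. Set against ConSul tumors, which the choice did not use, DIOSul tumors did not differ beyond their spread (0.10, 95% interval −1.09 to 1.28, limma adjusted p = 0.963), with 13.36 ± 1.32 in DIOSul and 13.26 ± 0.49 in ConSul tumors (SD, n = 8 and 6).

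Fn1 and Lox had the next largest values of DIOSul minus DIO in E0771 tumors. Fn1 had 10.55, 11.76 and 12.66 as its low, median and high in DIOSul tumors, against 7.52, 10.18 and 12.01 in DIO tumors, a difference of 1.65 ± 0.51 (SE; limma adjusted p = 0.0609). Lox had 9.16, 11.84 and 12.81 in DIOSul tumors, against 7.28, 9.28 and 12.54 in DIO tumors, a difference of 1.76 ± 0.68 (SE; limma adjusted p = 0.146). The DIO tumors are those that chose Postn, so these tests of Fn1 and Lox are not independent of that choice. Among them replicate 3 had the lowest Lox and Postn (7.28 and 9.79), and replicate 5 the highest Lox, Postn and Fn1 (12.54, 13.82 and 12.01). For both genes the groups overlapped, and the side of the threshold depended on single tumors and on the setting of the fit. Under other settings, 6 of 84 repeats of this comparison's member tests gained a call, all of Fn1 or Lox. With array weights in limma, Fn1 had adjusted p = 0.00126 and Lox adjusted p = 0.00916. Without DIO replicate 5, Fn1 differed by 1.93 (adjusted p = 0.0202) and Lox by 2.19 (adjusted p = 0.0423), and without ConSul replicate 6, which enters only through the pooled spread, Fn1 had adjusted p = 0.0426. Of the 7 genes tested 0 were called by limma and 2 had an unadjusted p under 0.05, with 5.03% of all genes called. The median of all 8 members was 0.37, against −0.02 over all genes.

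The remaining members gave narrow or wide intervals around 0. Sparc differed by −0.02 between DIOSul and DIO tumors, with a 95% interval of −0.33 to 0.29, while Thbs1 at −0.22, Tnc at 0.10, Thbs2 at 0.01 and Loxl1 at 0.64 had adjusted p of 0.354 to 0.995. Among the 81 other matrix genes 6 were higher and 6 lower in DIOSul tumors, again set against the DIO tumors that chose Postn. The higher ones included Itga4 (2.30, adjusted p = 0.000698), Tgfbi, an integrin ligand of the periostin family (1.01, adjusted p = 0.00241), Ccn4 (1.39, adjusted p = 0.0373) and Bgn (1.33). The lower ones included Plod1 and P3h1, which hydroxylate collagen lysine and proline residues (−0.52 and −0.64), and the collagen chain Col3a1 (−0.81). Of the 7 fibroblast markers only Thy1 was called, at 2.53 (median 0.85), in a comparison that reuses the DIO tumors that chose Postn. Of 7 macrophage markers 5 were called higher in DIOSul tumors (median 1.16), among them Adgre1 (1.80), C1qa (1.70) and C1qb (1.45), with a summed signal of 88.85 to 95.24 in DIOSul and 79.89 to 90.16 in DIO tumors. Of 4 platelet markers 2 were called lower, Ppbp and Gp9, and the part of these cells in the members' values was not tested.

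In control mice sulindac gave no call for a member in E0771 tumors. Postn had a low of 12.67, a median of 13.19 and a high of 14 in ConSul tumors, against 12.13, 13.81 and 15.11 in Con tumors (−0.51, described only). The ConSul tumors lay within the Con range. The largest of the 7 tested differences was that of Thbs1, −1.04 ± 0.56 (SE; limma adjusted p = 0.647), and 0 of 7 had an unadjusted p under 0.05. Over all genes limma called 0% in this comparison, while 1636 genes had an unadjusted p under 0.05. Between DIOSul and ConSul tumors 0 of 8 members were called, with 0.0974% of all genes called. In the difference of the sulindac effects, DIO mice minus Con mice, 0 of 7 members were called beside 0.405% of all genes, 1 had an unadjusted p under 0.05 (Fn1, 1.82, adjusted p = 0.281), and Postn had 2.55, as a description.

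**Figure D2:**
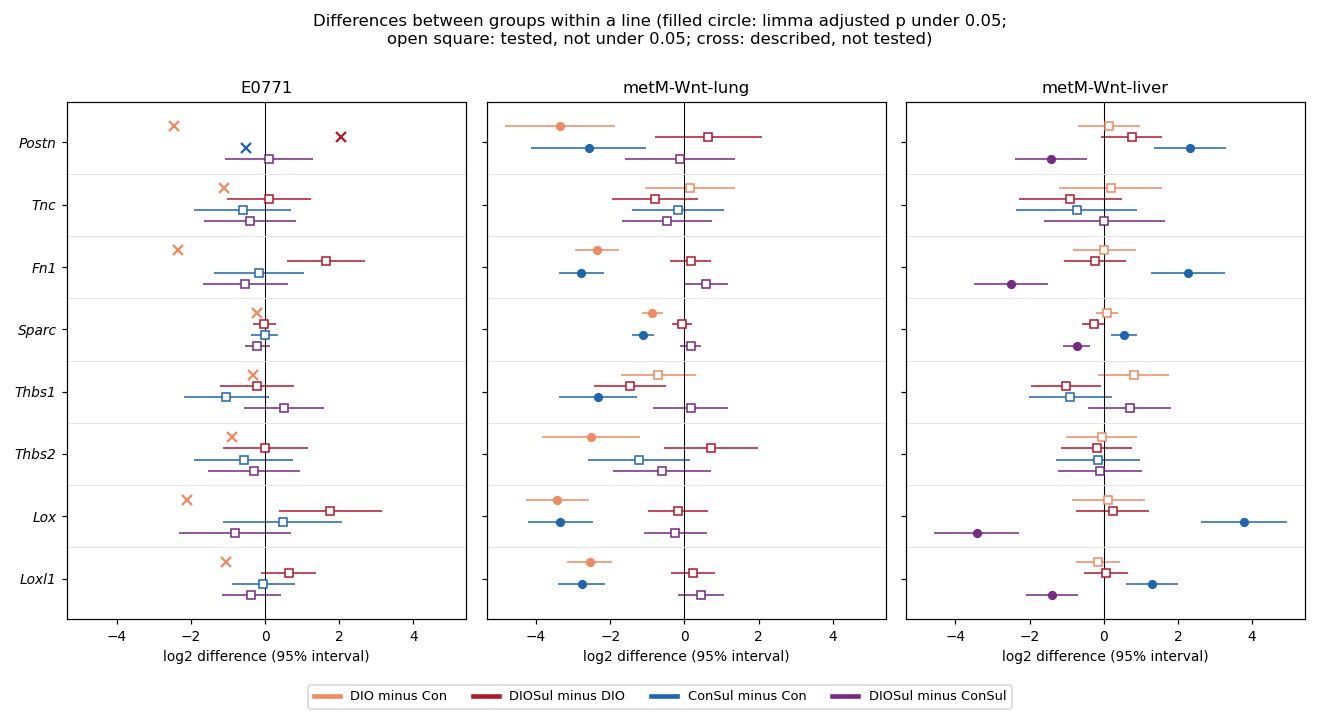
Log2 difference (horizontal axis) of each gene in 4 comparisons within each cell line, with 95% intervals, where filled points passed an adjusted p under 0.05, open squares did not, and crosses are described without a test. In metM-Wnt-lung tumors 6 genes are lower in DIO than in Con tumors, and in metM-Wnt-liver tumors 5 are higher in ConSul than in Con tumors.

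In metM-Wnt-lung tumors, 6 of the 8 genes were lower in DIO than in Con mice. Postn, whose values in this line the choice did not use, had a low of 9.23, a median of 13.78 and a high of 15.15 in the 7 DIO tumors, against 15.76, 16.07 and 17.22 in the 6 Con tumors. Every DIO tumor lay below every Con tumor, and the DIO tumors ranged far more widely. DIO replicates 1, 5 and 7, at 9.23, 11.28 and 11.52, drew the DIO mean below its median. The difference was −3.36 ± 0.72 (SE), 10.2-fold lower, with a 95% interval of −4.85 to −1.87 and limma adjusted p = 0.00128. The means were 12.85 ± 2.19 in DIO and 16.20 ± 0.53 in Con tumors (SD, n = 7 and 6).

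The crosslinking enzymes and fibronectin also fell. Lox had 12.02, 12.80 and 14.98 as its low, median and high in DIO tumors, against 15.86, 16.64 and 16.88 in Con tumors (−3.43, 10.8-fold lower, limma adjusted p = 1.70e-06). Loxl1 had 7.70, 9.23 and 10.11 in DIO tumors, against 11.59, 11.64 and 12.16 in Con tumors (−2.56, 5.89-fold lower, limma adjusted p = 1.18e-06). Fn1 had 14.10, 15.40 and 15.80 in DIO tumors, against 17.10, 17.48 and 18.10 in Con tumors (−2.36, 5.13-fold lower, limma adjusted p = 2.01e-06). In none of the 3 did the groups overlap. Sparc fell by 0.87 (adjusted p = 6.31e-05), again without overlap, and its DIO tumors lay between 16.68 and 17.49.

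The thrombospondins and tenascin C did not follow that pattern in full. Thbs2 fell by 2.53 (5.76-fold lower, limma adjusted p = 0.00491), but the groups overlapped. Its DIO tumors split, with 3 at 8.83 to 9.46 and 4 at 12.48 to 12.81. The same 3 tumors, DIO replicates 1, 5 and 7, also had the lowest Postn of the group (9.23, 11.28 and 11.52, against 13.78 to 15.15). Their fibroblast scores were the lowest of the group too (−2.52, −2.10 and −2.10). Thbs1 was not called (−0.70, adjusted p = 0.302) with all tumors, and fell by 1.20 (adjusted p = 0.0176) without DIO replicate 1, whose 15.33 was the highest value of the gene in the line. Tnc did not differ beyond its spread (0.15 ± 0.59 SE, adjusted p = 0.878). In the DIOSul tumors of this line Tnc split, with 3 at 9.58 to 9.92 and 4 at 12.71 to 13.87. Over all genes 27.4% were called in this comparison, 13.4% as lower, and 6.92% had groups that did not overlap, as had 5 of the 8 members. The median of the members was −2.44, against 0.0443 over all genes.

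Sulindac in lean mice gave nearly the same list in metM-Wnt-lung tumors, and those values share the Con arrays with the comparison above. Postn had 13.03, 13.20 and 15.08 as its low, median and high in the 6 ConSul tumors, against 15.76, 16.07 and 17.22 in Con tumors (−2.58 ± 0.75 SE, 5.99-fold lower, limma adjusted p = 0.0189). Lox had 12.35, 12.97 and 14.18 in ConSul tumors, against 15.86, 16.64 and 16.88 in Con tumors (−3.35, 10.2-fold lower, adjusted p = 8.34e-06). Both genes were lower in every ConSul tumor than in any Con tumor. Fn1 fell by 2.78 (adjusted p = 9.93e-07), Loxl1 by 2.77 (adjusted p = 1.59e-06), Thbs1 by 2.34 (adjusted p = 0.00264) and Sparc by 1.11 (adjusted p = 1.15e-05). Tnc (−0.17, adjusted p = 0.881) and Thbs2 (−1.22, adjusted p = 0.214) were not called. Thus 6 of 8 members were called lower, where 17.4% of all genes were called and 9.01% as lower, and 6 had groups that did not overlap, where 7.66% of all genes did. The median was −2.46, against 0.0283 over all genes.

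Without the Con arrays the metM-Wnt-lung groups were not told apart by any member. Between DIOSul and DIO tumors limma called 0 of 8, with 0.246% of all genes called, and 1 had an unadjusted p under 0.05 (Thbs1, −1.46, adjusted p = 0.170). Postn had 11.33, 14.19 and 14.77 in DIOSul tumors, against 9.23, 13.78 and 15.15 in DIO tumors, a difference of 0.65 (adjusted p = 0.821). The DIOSul tumors lay within the range of the DIO tumors. Between DIOSul and ConSul tumors it called 0 of 8 (0.226% of all genes, 1 at an unadjusted p under 0.05), and between DIO and ConSul tumors, a comparison chosen after the values were seen, 0 of 8 (2.15% of all genes, 1 at an unadjusted p under 0.05).

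The sulindac effects differed between obese and lean mice for 5 members in metM-Wnt-lung tumors, a test that includes the Con arrays. DIO mice minus Con mice gave 3.23 for Postn (adjusted p = 0.0469), 2.95 for Fn1 (adjusted p = 8.16e-05), 1.04 for Sparc (adjusted p = 0.00189), 3.19 for Lox (adjusted p = 0.00132) and 3.0 for Loxl1 (adjusted p = 0.000113) by limma, with 8.99% of all genes called and 5.37% as higher. The value of Postn passed narrowly. With 1 tumor left out at a time it lost the call in 19 fits (2.63 to 3.33, adjusted p = 0.0537 to 0.0795) and held it only without ConSul replicate 4, DIO replicate 2, 3, 4 or 6, or DIOSul replicate 1 or 7.

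Markers of several stromal and immune cell types moved with these genes in the metM-Wnt-lung comparisons. Of 7 fibroblast markers 5 were lower in DIO than in Con tumors (median −3.91) and 5 lower in ConSul than in Con tumors (median −2.98). Their summed signal was 65.63 to 81.65 in DIOSul, 62.05 to 89.91 in DIO, 71.09 to 81.49 in ConSul and 85.29 to 100.82 in Con tumors. All 7 adipocyte markers were lower in DIO tumors (median −5.51) and in ConSul tumors (median −5.02) than in Con tumors. Of 7 macrophage markers 6 were lower and 1 higher in DIO than in Con tumors (median −1.60), and 6 were lower in ConSul than in Con tumors (median −1.16), with a summed signal of 84.45 to 96.91 in DIO, 87.68 to 94.62 in ConSul and 97.23 to 99.74 in Con tumors. Of 5 endothelial markers 1 was lower in DIO and 4 were lower in ConSul tumors than in Con tumors. With the fibroblast score as a term in the fit of DIO against Con, Fn1 (−3.17), Lox (−4.33) and Loxl1 (−1.82) were called, while Postn was at 0.60 and Thbs2 at 0.73. With the distance between the 1st and 99th percentile of each array as a term, only Loxl1 was called (−2.49, adjusted p = 0.0285), while the other differences stayed negative with wider errors, at −4.69 for Postn, −3.09 for Thbs2, −0.99 for Sparc, −2.08 for Fn1 and −2.40 for Lox (adjusted p = 0.0518 to 0.208). That distance was 13.13 to 13.34 in Con and 12.93 to 13.03 in DIO arrays, so this fit cannot separate it from the group. Whether tissue content or the arrays set the Con values apart was not tested further.

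Fibrillar partners fell with the members in DIO against Con tumors of metM-Wnt-lung, and lysine hydroxylases did not. Of 14 such partners 9 were lower and 1 higher (median −2.05), among them elastin, Eln (−4.43), and the small proteoglycans Bgn (−3.22) and Dcn (−3.03). Of 19 other matricellular genes 10 were lower and 1 higher, including Tnxb, or tenascin X (−3.50), Thbs3 (−1.91) and Tgfbi (−0.90). Of 14 genes of collagen processing and crosslinking 5 were higher and 1 lower, with Plod2 at 1.01, P3h1 at 0.90 and Plod1 at 0.64. In ConSul against Con tumors 9 fibrillar partners were again lower, with Bgn at −3.11 and Dcn at −3.11, and of 14 genes of collagen processing and crosslinking 3 were higher, with Loxl4 at 1.17 and the prolyl hydroxylase P4ha2 at 1.77, and 1 was lower, the procollagen protease Bmp1 at −1.26 (median of the 14, 0.34).

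In metM-Wnt-liver tumors no member differed between DIO and Con mice. Postn had 11.42, 13.48 and 14.35 as its low, median and high in DIO tumors, against 12.30, 13.34 and 14.10 in Con tumors, and its groups overlapped. The largest value was that of Thbs1, 0.81 (limma adjusted p = 0.947). Over all genes limma called 0% between DIO and Con tumors and 0% between DIOSul and DIO tumors. Between DIOSul and DIO tumors 1 member had an unadjusted p under 0.05 (Thbs1, −1.02, adjusted p = 0.629), and Postn had 12.55, 14.26 and 14.71 in DIOSul tumors, against 11.42, 13.48 and 14.35 in DIO tumors (0.75, adjusted p = 0.715).

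Sulindac in lean mice was followed by higher values of 5 members in metM-Wnt-liver tumors. Lox was 17.21, 18, 17.62 and 18.20 in the 4 ConSul tumors, against a low of 12.49, a median of 14.03 and a high of 15.50 in the 7 Con tumors (3.79 ± 0.56 SE, 13.8-fold higher, limma adjusted p = 0.000144). Postn was 15.34, 15.69, 16.33 and 14.48 in ConSul tumors, against 12.30, 13.34 and 14.10 in Con tumors (2.32 ± 0.47 SE, 5.00-fold higher, adjusted p = 0.00269). Fn1 was 17.68, 17.83, 16.60 and 16.74 in ConSul tumors, against 13.94, 14.86 and 16.50 in Con tumors (2.28, 4.84-fold higher, adjusted p = 0.00347). In these 3 genes each ConSul tumor was above every Con tumor.

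Loxl1 and Sparc were also called, less firmly. Loxl1 was 10.29, 9.84, 11.64 and 10.89 in ConSul tumors, against 9.15, 9.41 and 9.65 as the low, median and high of Con tumors (1.30, 2.45-fold higher, adjusted p = 0.0154), again without overlap. It lost the call without ConSul replicate 3 (0.97, adjusted p = 0.0848). Sparc was 17.58, 17.25, 17.85 and 17.51 in ConSul tumors, against 16.80, 16.92 and 17.27 in Con tumors (0.54, 1.46-fold higher, adjusted p = 0.0416), with overlap. That call was lost in 8 fits that left out 1 tumor, namely ConSul replicate 1, 3 or 4 or Con replicate 1, 3, 5, 6 or 7, with adjusted p = 0.0533 to 0.146. Tnc (−0.74), Thbs1 (−0.90) and Thbs2 (−0.16) were not called. The 5 of 8 members called higher stood beside 11.4% of all genes called and 5.76% called higher, and the 4 without overlap beside 6.73%. The median of the members was 0.92, against −0.0225 over all genes.

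The same ConSul arrays also stood above the DIOSul arrays. Lox had 13.17, 14.23 and 15.17 as its low, median and high in DIOSul tumors, below all 4 ConSul tumors (−3.43, 10.8-fold lower, limma adjusted p = 0.000337), and Fn1 had 13.25, 15.06 and 16.33 in DIOSul tumors, also below all 4 (−2.50, 5.66-fold lower, adjusted p = 0.00149). Sparc fell by 0.73 (adjusted p = 0.00660), Loxl1 by 1.40 (adjusted p = 0.00814) and Postn by 1.43 (adjusted p = 0.0449), with overlap. These 5 of 8 stood beside 13.2% of all genes called and 6.95% as lower, and the 2 without overlap beside 9.03%. The median was −1.07, against 0.0243 over all genes. Loxl1 lost the call without ConSul replicate 3 (adjusted p = 0.0504). Postn lost it in 10 fits that left out 1 tumor, namely ConSul replicate 1, 2 or 3, DIOSul replicate 1, 3, 4 or 5, DIO replicate 1 or 7 or Con replicate 2, with adjusted p = 0.0502 to 0.161.

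The difference of the sulindac effects, DIO mice minus Con mice, was negative for Fn1 (−2.52, limma adjusted p = 0.0348) and Lox (−3.55, adjusted p = 0.0125) in metM-Wnt-liver tumors, with 2.22% of all genes called and 1.30% as negative. Fn1 lost this call without Con replicate 1, 2 or 3 or ConSul replicate 1 or 2 (adjusted p = 0.0501 to 0.0779). Sparc missed the threshold (−0.82, adjusted p = 0.0523) and passed it without Con replicate 4, ConSul replicate 2 or DIOSul replicate 2 (adjusted p = 0.0173 to 0.0439).

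Adipocyte, fibroblast and macrophage markers moved with the members in this line as well. All 7 adipocyte markers were higher in ConSul than in Con tumors (median 3.93) and lower in DIOSul than in ConSul tumors (median −4.53). Of 7 fibroblast markers 3 were higher and 1 lower in ConSul than in Con tumors (median 2.42), and their summed signal was 66.35 to 86.85 in DIOSul, 59.89 to 80.77 in DIO, 83.67 to 90.94 in ConSul and 64.22 to 80.54 in Con tumors. Of 7 macrophage markers 5 were higher in ConSul than in Con tumors (median 1.10) and 4 lower in DIOSul than in ConSul tumors (median −0.98). With the fibroblast score in the fit Fn1 (2.16) and Lox (4.24) were called higher in ConSul than in Con tumors and Tnc lower (−2.72, adjusted p = 0.0163). Bgn (3.17), Dcn (3.01) and Col1a2 (2.43) were among 5 fibrillar partners that were higher in ConSul tumors, with 1 lower. Over both metM-Wnt lines, 22 of 32 member tests were called in the 4 comparisons that set the arrays of wider spread against others. Of all genes, 11.4% to 27.4% were called in these 4. In the 5 comparisons that did not use those arrays, 0 of 40 member tests were called, beside 0% to 2.15% of all genes, so few calls could be looked for there.

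**Figure D3:**
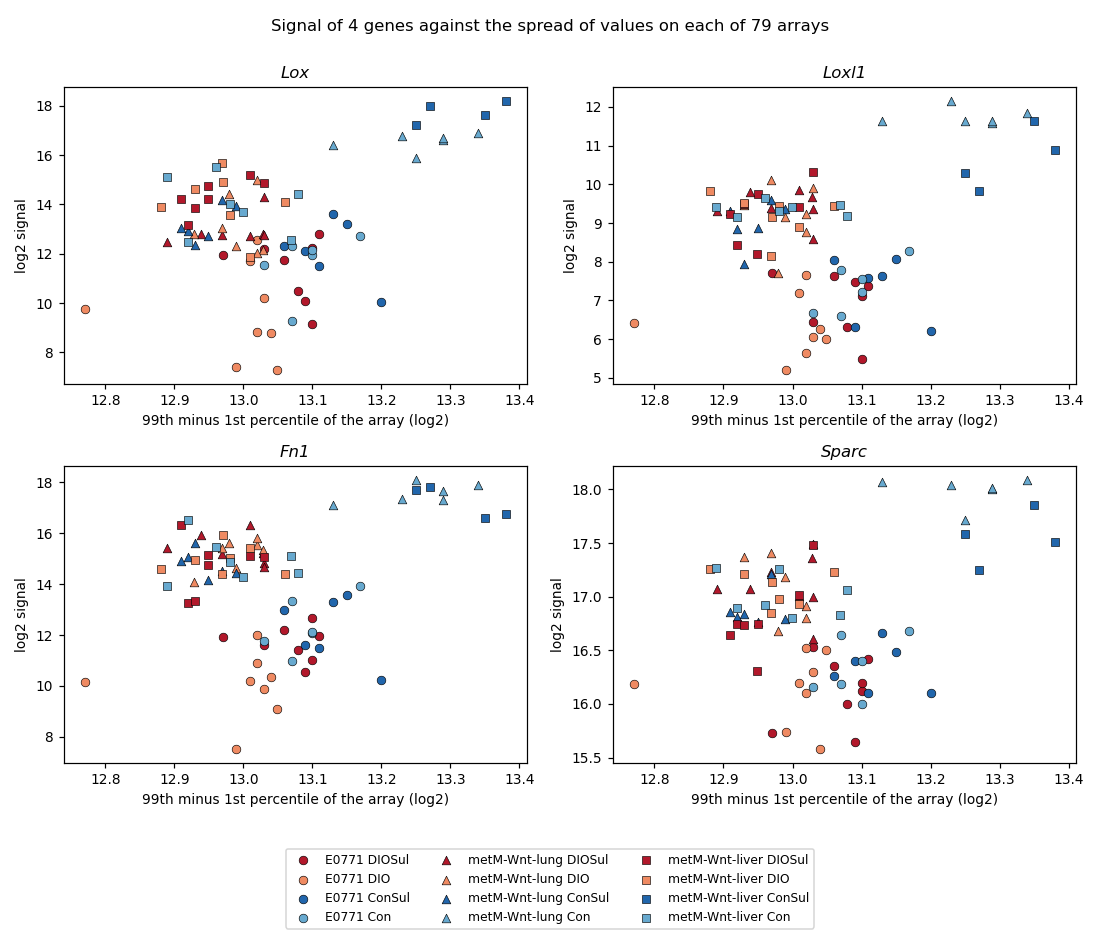
Log2 signal of Lox, Loxl1, Fn1 and Sparc (vertical axes) against the distance on the log2 scale between the 1st and 99th percentile of each array (horizontal axis), 1 point per tumor. The 6 Con tumors of metM-Wnt-lung and 4 ConSul tumors of metM-Wnt-liver lie to the right of the other metM-Wnt tumors, at 13.13 to 13.38, and above most of them.

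The effects of diet and of sulindac differed between the metM-Wnt lines for most members, in tests chosen after the values were seen that again rest on those arrays. For DIO minus Con, metM-Wnt-lung minus metM-Wnt-liver was negative and called for 6 members, with 11.5% of all genes called and 6.40% as negative. The values were −3.50 for Postn (limma adjusted p = 0.00441), −2.37 for Fn1 (adjusted p = 0.0106), −0.95 for Sparc (adjusted p = 0.00139), −2.46 for Thbs2 (adjusted p = 0.0482), −3.55 for Lox (adjusted p = 0.00328) and −2.40 for Loxl1 (adjusted p = 0.000646). For ConSul minus Con it was called for 5 of 8 members, from −1.65 for Sparc to −7.14 for Lox (adjusted p = 1.50e-08), with 29.9% of all genes called and 13.9% as negative. For DIOSul minus ConSul it was called for 4, all positive, with 2.43% of all genes called and 1.40% as positive. For DIOSul minus DIO, which uses none of the arrays of wider spread, 0 of 8 members and 0% of all genes were called by limma.

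Compared between lines, E0771 tumors had the lowest signal of nearly all members. Averaged over the 4 groups, 8 of 8 were lower in E0771 than in metM-Wnt-lung tumors, where 63.1% of all genes were called and 29.2% as lower, and 7 of 8 were lower than in metM-Wnt-liver tumors, where 62.8% were called and 29.3% as lower. The members' medians were −1.46 and −1.74, against 0.0234 and 0.0222 over all genes. Whether the 3 lines were run and normalized together is not given in the sources used here, so cell line and any such batch cannot be told apart. E0771 DIO tumors, which chose Postn, are part of the E0771 averages, so the Postn differences between lines are a description. The counts above, and those of their repeats, still include Postn.

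Fn1 and the crosslinking enzymes differed most between the lines. Over all 4 groups Fn1 lay between 7.52 and 13.92 in E0771 tumors, between 14.10 and 18.10 in metM-Wnt-lung tumors and between 13.25 and 17.83 in metM-Wnt-liver tumors. The E0771 difference was −4.17 ± 0.23 against metM-Wnt-lung (SE, 18-fold lower, limma adjusted p = 6.90e-27) and −3.90 ± 0.24 against metM-Wnt-liver (SE, 14.9-fold lower, adjusted p = 1.18e-24). Lox differed by −2.77 (6.84-fold lower, adjusted p = 4.46e-13) and −3.87 (14.6-fold lower, adjusted p = 9.37e-19), and Loxl1 by −2.86 (7.27-fold lower, adjusted p = 1.05e-24) and −2.65 (6.28-fold lower, adjusted p = 2.39e-22). Loxl1 lay between 5.20 and 8.29 in E0771 tumors and at 7.70 or above in every metM-Wnt tumor, so the lines overlapped only slightly.

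The matricellular genes differed by less. Set against metM-Wnt-lung tumors first and metM-Wnt-liver tumors second, E0771 tumors had Thbs2 at −1.81 (limma adjusted p = 3.41e-07) and −2.44 (adjusted p = 1.75e-10), Sparc at −1.02 (adjusted p = 7.35e-21) and −0.88 (adjusted p = 3.77e-17), and Postn at −1.11 (adjusted p = 0.00117) and −1.05 (adjusted p = 0.00280). Thbs1 was at −0.85 (adjusted p = 0.00360) and −0.67 (adjusted p = 0.0257), and against metM-Wnt-liver it lost the call without E0771 Con replicate 3 or metM-Wnt-liver ConSul replicate 3 (adjusted p = 0.0520 and 0.0564). Tnc was lower than in metM-Wnt-lung tumors (−1.09, adjusted p = 0.00315) and not called against metM-Wnt-liver tumors (0.51, adjusted p = 0.188). From the DIOSul and DIO groups alone, which leave out every array of wider spread and were chosen after the values were seen, 6 of 8 were called against metM-Wnt-lung, without Postn (−0.83) and Thbs1 (−0.67, adjusted p = 0.110), where 57.2% of all genes were called and 26.8% as lower. Against metM-Wnt-liver these groups gave 7 of 8, where 57.5% were called and 27.3% as lower. The E0771 DIO tumors that chose Postn weigh more in these averages, so the place of Postn in both counts is a description. From DIOSul tumors alone 5 of 8 were called against metM-Wnt-lung and 5 of 8 against metM-Wnt-liver. The share of all genes was not counted for that setting.

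The metM-Wnt lines differed from each other in Tnc and Lox, where 17.3% of all genes were called, 8.59% as higher and 8.66% as lower. Tnc was higher in metM-Wnt-lung than in metM-Wnt-liver tumors (1.6 ± 0.34 SE, 3.03-fold, limma adjusted p = 0.000268), and Lox was lower (−1.09 ± 0.31 SE, 2.13-fold, adjusted p = 0.00761). Tnc had medians of 12.71, 12.38, 12.05 and 12.37 in DIOSul, DIO, ConSul and Con tumors of metM-Wnt-lung, against 10.83, 10.50, 10.55 and 10.72 in those of metM-Wnt-liver. All 4 groups had the same order of medians for Tnc. For Lox the Con groups alone had the opposite sign (2.57). From the DIOSul and DIO groups alone Tnc (1.47, adjusted p = 0.0214) and Thbs2 (−1.37, adjusted p = 0.0212) were called and Lox was not (−1.18, adjusted p = 0.0564), where 15.2% of all genes were called, 7.88% as higher and 7.31% as lower.

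**Figure D4:**
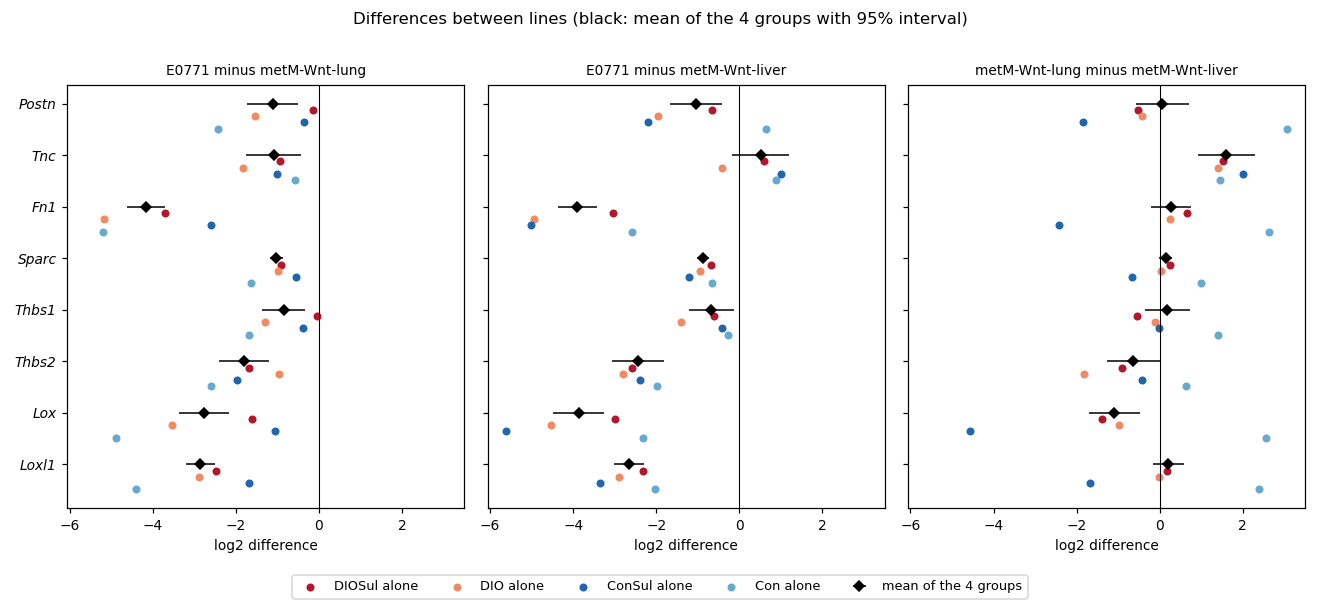
Log2 difference between cell lines (horizontal axis) for each gene, with the mean over the 4 groups and its 95% interval and, as smaller marks, each group alone. Fn1, Lox and Loxl1 are lower in E0771 than in either metM-Wnt line in every group, and the 4 groups disagree in sign for Lox between the metM-Wnt lines.

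Crosslinking genes that are no members split between the lines. Of 14 such genes 2 were higher and 10 lower in E0771 than in metM-Wnt-lung tumors, where 63.1% of all genes were called and 29.2% as lower. Loxl3 was lower by limma (−5.20) and Loxl4 higher (3.09), both lysyl oxidase family members, and against metM-Wnt-liver tumors they were at −5.19 and 2.81. Of 19 other matricellular genes 1 was higher and 11 lower than in metM-Wnt-lung tumors, with Smoc1 at 3.71, Mgp at −6.22 and Ccn4 at −3.25. In either direction together that was close to the share of all genes. Of 21 receptors 4 were higher and 12 lower. Set against metM-Wnt-liver tumors, metM-Wnt-lung tumors had 8 receptors higher and 0 lower, with the integrin subunit Itga8, part of a receptor for fibronectin and tenascin C, at 2.14. Between these lines 17.3% of all genes were called, 8.59% as higher.

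The members varied together in part across all 79 tumors. The following correlations are over tumors of all lines and groups after the mean of each set was subtracted, between values that share an array and its scaling, and serve as a description. Pearson's r was 0.67 between Postn and Thbs2, 0.56 between Sparc and Thbs2, 0.50 between Sparc and Loxl1, 0.45 between Postn and Loxl1 and 0.41 between Lox and Loxl1, while Postn and Thbs1 had −0.21. The genes most like Postn were the collagen I chain Col1a2 (0.80), the growth factor Igf1 (0.76) and Slfn5 (0.75). Those most like Thbs2 and Loxl1 included Col1a2 (0.70 for each), those most like Sparc were Cthrc1 (0.73), Sfrp2 (0.69) and the collagen chain Col3a1 (0.67), and those most like Thbs1 were Marco, a macrophage scavenger receptor (0.68), Gclm (0.67) and Cxcl2, a neutrophil chemokine (0.65). Tnc was most like Kdr, the main VEGF receptor of endothelium (0.65). For Lox and Fn1 no gene exceeded 0.63, App for Lox and Wdr13 (0.58) for Fn1.

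Marker scores set Fn1, Lox and Thbs1 apart from the rest. The fibroblast score correlated at 0.76 with Postn, at 0.63 with Thbs2 and Loxl1, at 0.57 with Sparc and at 0.45 with Tnc, but at 0.20 with Fn1, 0.18 with Lox and −0.23 with Thbs1. For Lox the pooled value joins 3 lines, and correlations with the score within each line were not taken. Among E0771 DIO tumors, Lox was 7.42 at the lowest fibroblast score (−1.95) and 12.54 at the highest (0.80). Among metM-Wnt-lung DIO tumors, the lowest score (−2.52) went with the highest Lox, 14.98, but replicate 7, with a score of −2.10, had the lowest Lox, 12.02. Single tumors such as these do not show how Lox varied with the score in a line. Tnc correlated at 0.56 and Postn at 0.58 with the endothelial score. Thbs1 correlated at 0.54 and Lox at 0.39 with the platelet score.

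**Figure D5:**
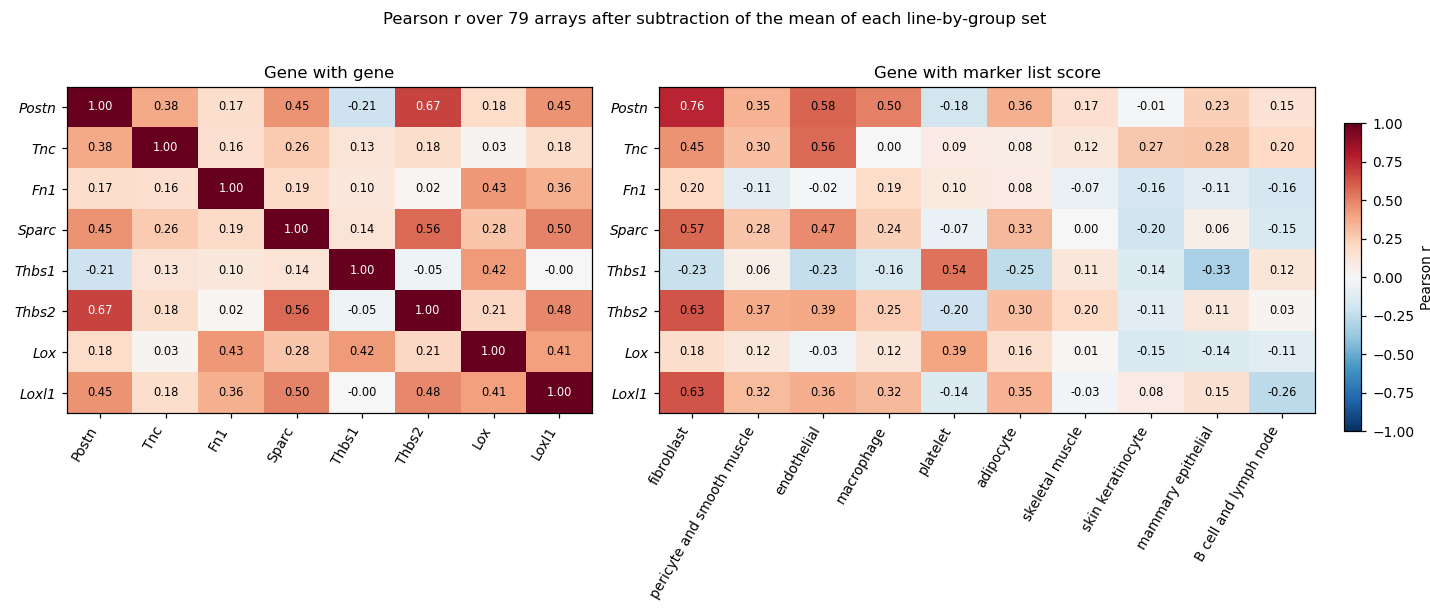
Pearson's r over 79 tumors, after the mean of each set was subtracted, between the 8 genes (left) and between each gene and scores of cell type markers (right), drawn as a color scale. Postn has its highest value with the fibroblast score, 0.76, and Thbs1 with the platelet score, 0.54.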

How the data were processed

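RNA of 79 mouse tumors was hybridized to Clariom S Mouse HT arrays, 1 per tumor. The deposited log2 values are the output of SST-RMA, run by the authors in Transcriptome Analysis Console 4.0, for 22206 transcript clusters per array. SST-RMA stretches low signals, so folds depend on it. Whether the lines were normalized together is not given in the sources used here. The values were used as deposited. The platform table gave 19572 clusters 1 symbol and 2634 none. Where a gene had several clusters (55 genes), the one with the highest mean was kept, which left 19505 genes.

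A model per line, with its 4 groups, was fitted in limma 3.58.1 (R 4.3.3), and comparisons between lines came from a model of all 12 sets. P-values were adjusted over all genes by the Benjamini-Hochberg method and called under 0.05. The members, the lists of other genes and the tests were chosen with earlier results of these data known. The text names every member, up to 3 called genes of each list by smallest adjusted p, otherwise its first, and the 3 genes most like each member. Some list genes were not analysed here. The fits were tested on simulated data. The labels give 1 tumor per mouse, no batch, and replicate numbers, without saying whether equal numbers pair mice across groups. With group means removed, the mean correlation of same-numbered arrays was −0.00692 for E0771, 0.0430 for metM-Wnt-lung and −0.0116 for metM-Wnt-liver. Single pairs ranged from −0.31 to 0.60 in metM-Wnt-lung, and the mice were treated as unpaired. Array number limits the precision. Muscle markers were called high above a score of 2 and keratinocyte markers above 1. Alternatives were quantile normalization, array weights, the mean over clusters, a filter at the median signal, trended robust variances, only the groups compared, a joint fit of the 3 lines, a block for replicate number, terms for adipocyte and muscle scores, for the fibroblast score or for the spread of each array's values, leaving out arrays high in muscle or keratinocyte markers or each array in turn, and single groups for the lines. Chosen after seeing the data were DIO minus ConSul in metM-Wnt-lung, the differences of effects between metM-Wnt lines, and line comparisons from the DIOSul and DIO groups.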

Additional observations from a re-analysis of the deposited data

Results flagged for a closer look

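Of 96 sets of tumors (8 genes in 12 sets of 4 to 8), 7 held a tumor whose distance from its nearest neighbor took up an unusually large share of the set's range. Chance marks about 1 in 20 such sets. Postn was 17.22 in metM-Wnt-lung Con replicate 4, where the next highest value was 16.25. Sparc was 17.71 in metM-Wnt-lung Con replicate 3, the lowest of its set, with the next at 18, and 17.21 in metM-Wnt-lung ConSul replicate 3, above 16.86. Thbs1 was 15.33 in metM-Wnt-lung DIO replicate 1, above 12.85. Lox was 9.29 in E0771 Con replicate 4, where the others began at 11.53. Replicate 1 of metM-Wnt-lung DIOSul was set apart in both lysyl oxidases, with the highest Lox of its set (14.31, above 12.80) and the lowest Loxl1 (8.60, below 9.31).

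Effects that differed by a limma test of the difference itself are the following. The sulindac effect in DIO mice minus that in Con mice was 3.23 for Postn, 2.95 for Fn1, 1.04 for Sparc, 3.19 for Lox and 3.0 for Loxl1 in metM-Wnt-lung tumors, and −2.52 for Fn1 and −3.55 for Lox in metM-Wnt-liver tumors. Set between the lines as metM-Wnt-lung minus metM-Wnt-liver, DIO minus Con differed by −3.50 for Postn, −2.37 for Fn1, −0.95 for Sparc, −2.46 for Thbs2, −3.55 for Lox and −2.40 for Loxl1. ConSul minus Con differed by −4.91 for Postn, −5.06 for Fn1, −1.65 for Sparc, −7.14 for Lox and −4.06 for Loxl1, and DIOSul minus ConSul by 3.09 for Fn1, 0.91 for Sparc, 3.19 for Lox and 1.85 for Loxl1. Each of these includes the metM-Wnt-lung Con or metM-Wnt-liver ConSul arrays, whose values have the wider spread. The comparisons between lines were chosen after the values were seen.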

How the results depend on the processing

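Of 1621 repeats of a member's test under another setting, 1494 stayed on the same side of the threshold, 100 lost a call, 17 gained a call, 7 turned the sign of a called result and 3 were called with the other sign of a result that had not been called. A further sign change without a call under either setting occurred in 81 of the 1494. Most of the 1621 were repeats of tests without a call, so the 1494 overstate how well the calls held. In metM-Wnt-liver DIO minus Con, which had no call, 96 of 96 stayed the same, while in ConSul minus Con of that line 17 of 96 lost a call.

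In E0771 DIOSul minus DIO, where 0 of 7 members were called, 2 were called (Fn1 and Lox) with the 3 lines in 1 fit, 2 with array weights, 1 (Fn1) among genes above the median signal and 1 (Fn1) with only these groups in the fit. Each of these fits reuses the DIO tumors that chose Postn. In metM-Wnt-lung tumors DIO minus Con gave 3 with adipocyte and muscle scores, 3 with the fibroblast score and 1 with the spread of the array's values as a term, in place of 6. ConSul minus Con gave 3 and 0 with the adipocyte and muscle scores and with the spread, in place of 6. With the spread, Postn was at −4.14 in place of −2.58, Fn1 at −2.45 in place of −2.78 and Sparc at −1.26 in place of −1.11. Thbs1 was at −1.01 in place of −2.34, Lox at −2.14 in place of −3.35 and Loxl1 at −2.69 in place of −2.77. The spread was 13.13 to 13.34 in Con and 12.91 to 12.99 in ConSul arrays, so this fit cannot separate it from the group. The difference of the sulindac effects gave 2, 3 and 0 with these 3 terms and 3 without arrays high in muscle or keratinocyte markers, in place of 5. In metM-Wnt-liver tumors, with the same 3 terms and without those arrays, ConSul minus Con gave 2, 3, 0 and 3 in place of 5, DIOSul minus ConSul gave 2, 2, 0 and 2 in place of 5, and the difference of the sulindac effects gave 1, 1, 0 and 0, and 1 with quantile normalization, in place of 2. With the spread as a term, ConSul minus Con in this line was 3.97 for Lox in place of 3.79 and 3.0 for Postn in place of 2.32. Fn1 was at 2.77 in place of 2.28, Loxl1 at 0.56 in place of 1.30 and Sparc at 0.31 in place of 0.54. Here too the spread did not overlap between the groups, at 13.25 to 13.38 in ConSul and 12.89 to 13.08 in Con arrays. Between lines, E0771 minus metM-Wnt-lung gave 5 from DIOSul and 4 from ConSul tumors alone in place of 8, and metM-Wnt-lung minus metM-Wnt-liver gave 0, 1, 4 and 6 from DIOSul, DIO, ConSul and Con tumors alone and 1 without arrays high in those markers, in place of 2. The cause of these changes was not tested. Settings that leave arrays out also have fewer of them.

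With the fibroblast score in the fit, Postn was at −0.94 in E0771 DIO minus Con, and it turned sign in metM-Wnt-lung tumors, to 0.60 in DIO minus Con, 0.75 in ConSul minus Con and −0.72 in the difference of the sulindac effects. Thbs2 turned sign in DIO minus Con of that line, to 0.73 with the fibroblast score and 0.45 with the adipocyte and muscle scores. Between lines, Postn was 0.63 in E0771 minus metM-Wnt-liver from Con tumors alone. In metM-Wnt-lung minus metM-Wnt-liver, Lox was 2.57 from Con tumors alone, and Fn1 was −2.43, Sparc −0.67 and Loxl1 −1.68 from ConSul tumors alone.

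Leaving out 1 tumor at a time gave 0 to 2 called members in E0771 DIOSul minus DIO, 6 to 7 in metM-Wnt-lung DIO minus Con, 6 in ConSul minus Con and 4 to 5 in its difference of sulindac effects. It gave 3 to 5 in metM-Wnt-liver ConSul minus Con, 3 to 5 in DIOSul minus ConSul, with 3 without ConSul replicate 3 in each, and 1 to 3 in its difference of sulindac effects. It gave 8 in E0771 minus metM-Wnt-lung, 6 to 7 in E0771 minus metM-Wnt-liver and 2 in metM-Wnt-lung minus metM-Wnt-liver, and 0 in the other within-line comparisons left out in this way (E0771 ConSul minus Con, DIOSul minus ConSul and its difference of sulindac effects, and DIOSul minus DIO in both metM-Wnt lines, metM-Wnt-lung DIOSul minus ConSul and metM-Wnt-liver DIO minus Con). The comparisons added after seeing the data had no repeats of this kind.

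Samples share only a replicate number. With it as a block, Postn was at −2.48 in E0771 DIO minus Con, and 4 members were called in metM-Wnt-liver ConSul minus Con and 4 in DIOSul minus ConSul, in place of 5 in each. The counts of the other comparisons refitted with the block did not change, and the comparisons added after seeing the data were not refitted.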
